A study of Mus musculus with 32 samples.

Results

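Meningeal lymphatic endothelial cells (mLECs) sorted from light-treated 5xFAD mice (labelled 5xFAD+L) were compared with mLECs sorted from untreated 5xFAD mice. This comparison takes 6 of the 32 libraries of the series, 3 per group, each made from the meninges of 1 male mouse 6 months of age. Both groups carry the same transgenes, human APP and presenilin with familial Alzheimer's disease mutations, which the regulatory sequence of Thy1 drives in neurons. The light-treated mice received transcranial near-infrared light under isoflurane anaesthesia for 10 min per session, 3 times per week for 4 weeks. By the methods of the study, control mice went through the same handling, with anaesthesia and a shaved scalp, under indoor lighting instead. Untreated therefore means without near-infrared light. WT libraries, 4 in number and from mice of the same age without the transgenes, were sorted in the same way, and their levels are given beside for reference. The members are the 6766 of 22337 genes in the mLEC table that reached an FPKM (fragment count scaled by transcript length and library size) of 1 in 3 or more of the 6 libraries. The libraries are numbered as in the labels, light-treated 1, 2 and 3 and untreated 1, 2 and 4, and values below are given in that order.

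Lymphatic endothelial cells line the lymphatic vessels of the dura mater, which carry fluid, macromolecules and immune cells from the meninges to the deep cervical lymph nodes. Their identity depends on the transcription factor PROX1, and they are commonly recognized by the hyaluronan receptor LYVE1, the membrane glycoprotein podoplanin (Pdpn), the VEGF-C receptor VEGFR3 (Flt4) and the chemokine CCL21, which guides dendritic cells and T cells into the vessel. CD31 (Pecam1) is shared with blood endothelial cells. The sort kept viable singlets that were negative for CD45 and positive for CD31 and podoplanin, and the cells were lysed directly for a Smart-seq2 library. The number of cells per library is not given in the sources used here. In libraries made from few cells, a transcript can be missed at reverse transcription and then be absent whatever the depth.

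Total counts ran from 14231402 to 24207323 in the 6 libraries, and a gene was taken as detected at a count of 1 or more. Light-treated libraries held 8431, 8361 and 7113 detected genes and untreated libraries 8792, 8631 and 8282. The mean was 600 genes lower in the light-treated group, within what the labels allow by exchange (exact permutation test, two-sided, p = 0.3, where 3 against 3 cannot go below 0.1). With counts thinned to the smallest total the difference was 717 genes (p = 0.2, exact permutation test). Dropout was common among the tested genes. Of these, 62.4% had a count in all 6 libraries, 20.8% were at 0 in 1 library, 11.6% in 2 and 5.19% in 3. The share at 0 was highest in light-treated library 3, at 17.8%, and lowest in untreated library 1, at 5.19%. Pairs of libraries correlated across genes at Pearson's r between 0.541 and 0.609 within the light-treated group, between 0.603 and 0.698 within the untreated group and between 0.533 and 0.669 across the groups (log2(FPKM + 1), genes are not independent replicates). By edgeR's estimate the common biological coefficient of variation was 1.70 with the WT libraries included and 1.51 for the 6 libraries alone. This is a single value for all tested genes and does not describe a typical gene. The median SD of log2(FPKM + 1) within a group was 1.355 in the light-treated and 1.01 in the untreated libraries.

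**Figure D1:**
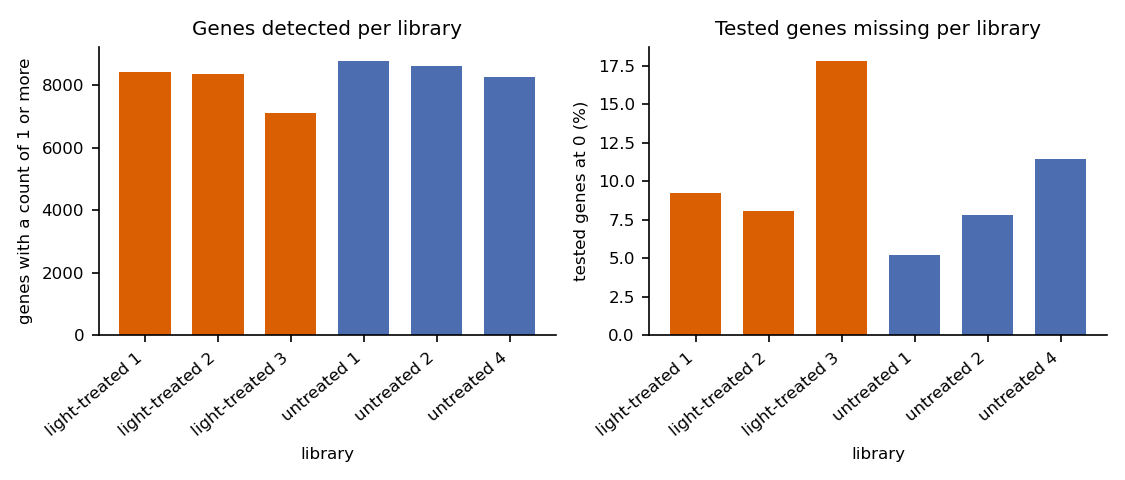
Bars give, for each of the 6 libraries, the number of genes with a count of 1 or more (left) and the percent of the 6766 tested genes at a count of 0 (right), with light-treated libraries in orange and untreated in blue. Light-treated library 3 has the fewest detected genes (7113) and the highest share of tested genes at 0 (17.8%).

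The label was checked against marker genes. All 20 pan-endothelial genes of the list used here were detected in all 6 libraries, and their summed FPKM lay between 5265 and 7170 in the light-treated and between 5989 and 6724 in the untreated group. Pecam1 had an FPKM between 212 and 398 in the sorted libraries, against 11.1 to 32.7 in whole meninges of the 6 5xFAD mice in the other table, which was normalized separately. Ptprc, which encodes the CD45 used to exclude leukocytes, had no count in any of the 6 libraries. Lymphatic identity was less uniform. Ccl21a was abundant in each, at an FPKM of 9356, 2896 and 8664 in the light-treated and 998, 1535 and 4344 in the untreated libraries. Pdpn, on whose protein the cells were sorted, was at 0 in untreated libraries 2 and 4 and at 0.04 in light-treated library 3, and Prox1 had no count in untreated library 2. Genes of blood and venous endothelium were present beside them (chosen after their values were seen). Plvap, a component of fenestral diaphragms, ranged from 496 to 1545, and Selp, the P-selectin of venules, from 460.5 to 1234.1. The name mLEC therefore stands below for whatever cells the sort kept, blood endothelial cells possibly among them. The make-up of each sort was not tested.

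Markers of other cell types differed between libraries. The smooth muscle genes Acta2 and Tagln brought the summed FPKM of the 10 mural genes to 430.3 and 633 in untreated libraries 1 and 2, against 13.4 to 62.9 in the light-treated libraries and 29.1 in untreated library 4. The 4 mural genes that passed the filter all had log2 fold changes below 0, with a median of -2.74. Haemoglobin genes took 0.773% of the counts of untreated library 4 and at most 0.0032% of the other 5. Among the 15 fibroblast genes, Mgp was high throughout (1541 to 4552) and Dcn, which encodes decorin, was at 612, 320 and 0.30 in the light-treated and 276, 65.4 and 36.9 in the untreated libraries. The defining fibroblast genes Lum, Pdgfra and Dpt had no count in the 6 libraries and Col3a1 had at most 5 in any. Of the 18 macrophage and monocyte genes, 9 had no count in any of the 6 libraries and only Fcer1g passed the filter. None of the 10 T and NK cell genes or 8 mast cell genes passed it, and of 12 neural and glial genes only the transthyretin gene Ttr did, at 96.8, 0.14 and 0 against 83.0, 55.2 and 0. Cd74, the invariant chain on the B cell list, was at 333, 228 and 381 against 199, 503.5 and 4.52. In bulk libraries, fewer cells of a type and less RNA per cell cannot be told apart.

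The study asked of these cells whether light altered the lymphatic markers and the growth factor gene Tgfa. Lyve1 (ENSMUSG00000030787, chromosome 7 from 110850607 to 110863239, GRCm38), the hyaluronan receptor, had an FPKM of 89.2, 16.5 and 27.2 in the light-treated and 2.96, 12.2 and 3.6 in the untreated libraries. Every light-treated library lay above every untreated one, although light-treated library 2 and untreated library 2 were close. The edgeR log2 fold change was 2.84 (SE 2.53, adjusted p = 1.00), and leaving out 1 library at a time gave 1.84 to 3.76. WT libraries stood at 34.0, 0, 2.56 and 0, so WT mice covered the range of both 5xFAD groups except the highest light-treated value. Prox1 (chromosome 1 from 190118035 to 190170714), the transcription factor, was at 4.20, 1.53 and 2.88 in the light-treated and 0.75, 0 and 0.29 in the untreated libraries. Again the groups did not overlap, at levels near the filter of 1 FPKM (log2 fold change 2.69, SE 3.18, adjusted p = 1.00). Prox1 was below that filter in every untreated library, so it passed only through the light-treated group and could not overlap. WT libraries stood at 0, 0, 1.95 and 5.71.

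Tgfa (chromosome 6 from 86195223 to 86275719), a ligand of the EGF receptor, had an FPKM of 19.9, 29.8 and 11.6 in the light-treated libraries. In the untreated libraries it was at 0.11, 4.79 and 0, all below the lowest light-treated library. The log2 fold change was 3.39 (SE 2.57, adjusted p = 1.00), between 2.81 and 3.59 when 1 library was left out except untreated library 2, without which it was 8.24. On the log2(FPKM + 1) scale the light-treated mean was higher by 2.51 for Lyve1, 1.5 for Prox1 and 3.43 for Tgfa, each with p = 0.1 in the exact permutation test, which is the smallest value that 3 against 3 can give. Pdpn, the sorting antigen, was at 77.6, 6.2 and 0.04 against 23.5, 0 and 0, so the groups overlapped (p = 0.5, exact permutation test) and light-treated library 1 set the light-treated mean. Without that library the edgeR log2 fold change of Pdpn turned from 1.85 to -1.18, and without untreated library 1, the only untreated library with a Pdpn count, it was 12.84, so the data give Pdpn no stable value. Pecam1 was at 212, 269 and 249 in the light-treated and 291, 398 and 238 in the untreated libraries, with overlap and a log2 fold change of -0.31 (SE 0.39, adjusted p = 1.00). The standard error of Pecam1 was thus far smaller than those of the lymphatic markers and Tgfa.

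**Figure D2:**
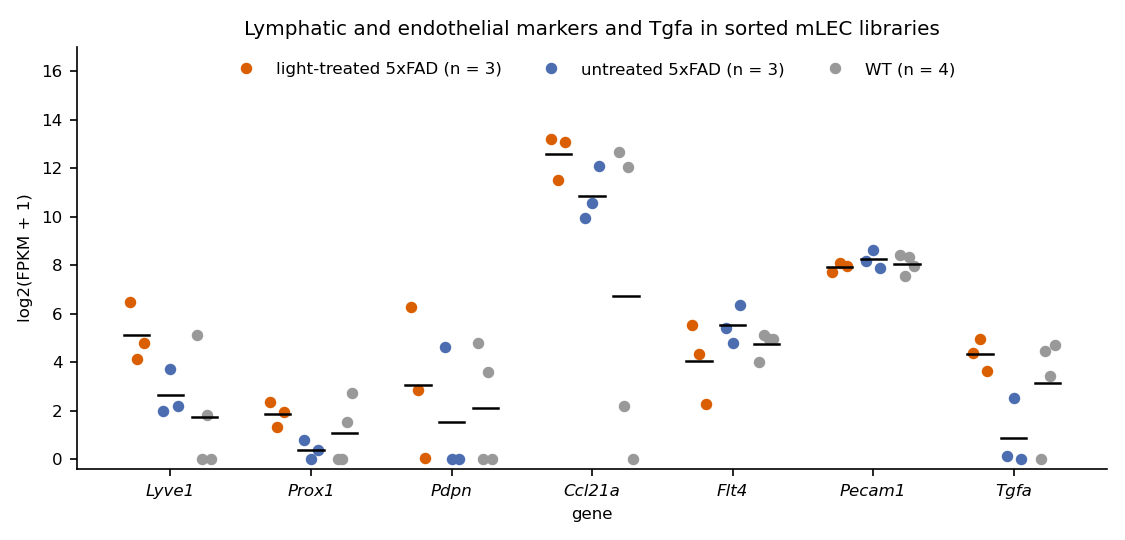
Each point is the log2(FPKM + 1) of a gene in 1 sorted library, for light-treated 5xFAD (orange, n = 3), untreated 5xFAD (blue, n = 3) and WT (grey, n = 4), and the black line is the mean of the group. Lyve1, Prox1 and Tgfa are higher in all 3 light-treated than in all 3 untreated libraries, whereas the groups overlap for Pdpn, Ccl21a, Flt4 and Pecam1.

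Over all 15 tested genes of the lymphatic identity list, 8 were higher and 7 lower in light-treated mLECs, and the median log2 fold change was 0.05, beside 0.07 over all tested genes. Lyve1 and Prox1 were the only members whose groups did not overlap, 2 of 15 higher and 0 lower, beside 3.86% and 6.8% of all tested genes. For Prox1 this followed from the filter, which it could pass only through the light-treated group. Ccl21a, the most abundant member, had a log2 fold change of 1.60 (SE 2.02) with overlapping groups. Sox18, a transcription factor of endothelial fate upstream of Prox1, was at 82.1, 164 and 311 in the light-treated and 367, 508 and 282 in the untreated libraries (log2 fold change -1.04, SE 0.58, overlapping). Mmrn1, a secreted glycoprotein of lymphatic endothelium, was at 146, 139 and 46.6 against 88.3, 109 and 60.4, and Flt4 also overlapped.

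Across all 6766 tested genes, edgeR called 0 genes higher (0.0%) and 0 lower (0.0%), where a call needed an adjusted p below 0.05 together with a 2-fold difference, and the smallest adjusted p was 0.440. At an unadjusted p below 0.05 there were 20 higher (0.296%) and 132 lower genes (1.95%), 152 in all. Of the 132, 86 had 3 counts or fewer in each light-treated library, and of the 20, 10 had 3 or fewer in each untreated library. Limma on log2(FPKM + 1) also called 0 genes. DESeq2 called 6 higher (0.0887%) and 67 lower (0.99%), described below. The light-treated libraries lay above the untreated ones without overlap for 261 genes (3.86%) and below for 460 (6.8%). Genes below 1 FPKM throughout a group could pass the filter only through the other group, so their groups could not overlap. Such genes are included in the counts and shares without overlap given here and below.

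How far a gene could be compared depended on its level. The 1010 genes with a mean FPKM of at least 100 had a median SE of 0.66 log2 units, and 0.792% of them were at 0 in any library. For the 3724 genes between 10 and 100 the median SE was 2.10 and the share with a library at 0 was 32.5%. Below 10, the 2032 genes had a median SE of 2.98 and 65.4% had a library at 0. The share of genes without overlap was alike in the 3 classes, at 11%, 9.85% and 12%. Its direction was not: the counts were 60 higher and 51 lower at 100 and above, 156 and 211 between, and 45 and 198 below 10. The share of tested genes at 0 was 9.25%, 8.09% and 17.8% in the light-treated and 5.19%, 7.82% and 11.4% in the untreated libraries, which overlap (p = 0.4, exact permutation test), and its part in the low class was not tested.

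**Figure D3:**
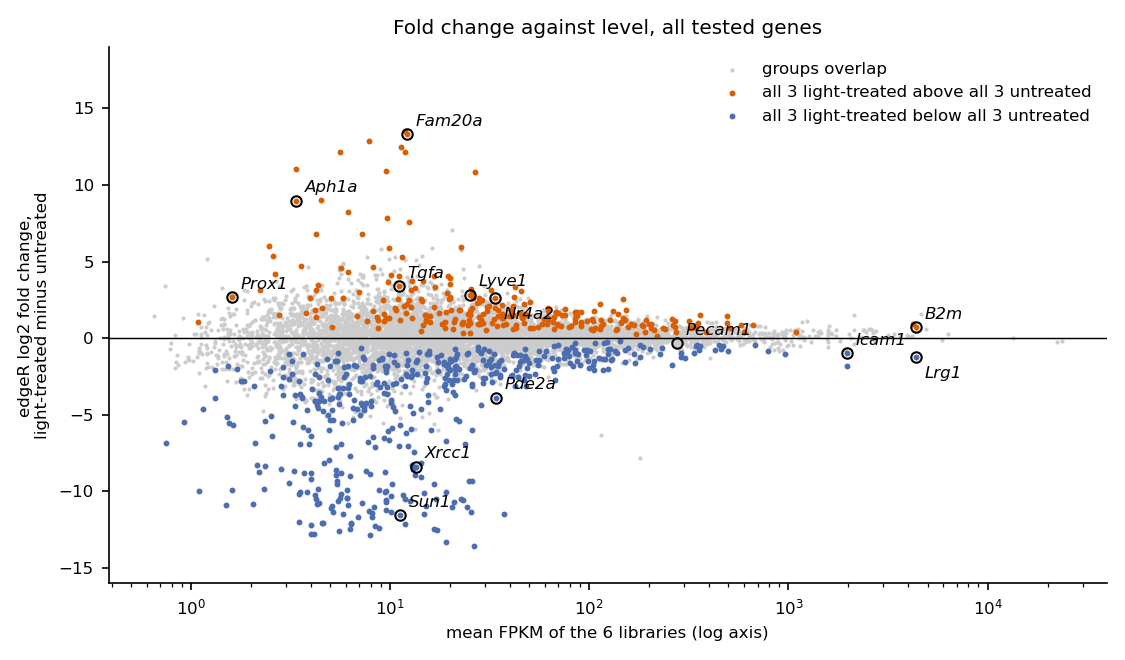
Each point is 1 of the 6766 tested genes, with its mean FPKM over the 6 libraries on a log axis and the edgeR log2 fold change of light-treated minus untreated mLECs, coloured by whether the groups overlap. Beyond a change of 5 log2 units nearly all points lie below a mean FPKM of 100 and most of them are lower in the light-treated libraries, while B2m, Icam1 and Lrg1 combine a high level with a change near 1.

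Among the genes without overlap that were lower in light-treated mLECs, Pde2a had the smallest p of all tested genes. Pde2a (chromosome 7 from 101421691 to 101512827) encodes a phosphodiesterase that breaks down cAMP and cGMP and acts in endothelial permeability. Its FPKM was 2.95, 5.25 and 4.49 in the light-treated and 28.8, 120.0 and 43.3 in the untreated libraries. No library was at 0, and the 3 light-treated values lay close together and well under the lowest untreated one. WT libraries were higher still, between 129 and 245. The log2 fold change was -3.87 (SE 0.66, unadjusted p = 6.52e-05, adjusted p = 0.440), it stayed between -4.22 and -3.05 when 1 library was left out, and DESeq2 gave an adjusted p of 6.01e-07. It is the named lower gene that does not rest on an absence.

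The other lower genes named by the same rule were nearly absent from the light-treated libraries. Sun1, a protein of the inner nuclear membrane that links the nucleus to the cytoskeleton, was at 0, 0.05 and 0 against 36.4, 1.40 and 29.7. Dpagt1, which starts the lipid-linked oligosaccharide of N-glycosylation, was at 0, 0.02 and 0.03 against 56.6, 91.5 and 4.96. Chmp6, a subunit of the ESCRT-III complex of membrane scission, was at 0, 0.05 and 0 against 40.3, 47.1 and 37.7. In each of these the light-treated libraries held at most 2 counts in all and the untreated libraries between 3419 and 5480. Mtfr1, a mitochondrial fission regulator, was at 0.10, 0.11 and 0 against 41.7, 22.0 and 90.6. Dnase1l3, a secreted DNase, was at 0.01, 0.04 and 0 against 7.53, 9.84 and 14.6, and 1 of the 4 WT libraries was as low, at 0.01. Abhd6, a monoacylglycerol lipase, had no count in the light-treated libraries and 13.9, 24.8 and 14.2 FPKM in the untreated ones, at least 677-fold lower against a floor of 3 counts over the group, yet 1 WT library was also near 0, at 0.02. Ints10 of the integrator complex, Gnpat of ether lipid synthesis, Nol11 of ribosome biogenesis, Mrps10 of the mitochondrial ribosome and Dbr1, the lariat debranching enzyme, followed the same form with between 1 and 7 counts over the light-treated group. Their unadjusted p values ran from 0.00284 to 0.00509. For Ints10, Nol11 and Mrps10 a WT library was likewise at or below 0.06 FPKM, and Gnpat was at 0.56 in 1.

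Genes higher in light-treated mLECs fell into the same kinds. Nr4a2, an orphan nuclear receptor induced as an immediate early gene, had an FPKM of 73.8, 41.8 and 60.1 in the light-treated and 13.7, 10.6 and 1.86 in the untreated libraries. It was detected in each library and the groups stood well apart, with WT libraries between 55.8 and 299. The log2 fold change was 2.61 (SE 0.87, unadjusted p = 0.0110, adjusted p = 1.00), between 2.13 and 3.07 when 1 library was left out. B2m, the light chain of MHC class I, was at 6895, 4886 and 4417 against 3314, 3704 and 3021, a log2 fold change of 0.72 (SE 0.28). Tmsb4x, the actin-sequestering thymosin beta 4, was at 7646, 3732 and 4963 against 2960, 3299 and 2581 (0.91, SE 0.36). Depp1, a gene induced by FOXO factors, was at 139, 230 and 237 against 78.4, 52.2 and 52.4 (1.77, SE 0.69). All 4 WT values of B2m lay between the lowest untreated and the lowest light-treated values, whereas those of Depp1 spanned both groups.

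The remaining 8 higher genes were at or near 0 in every untreated library. Fam20a, a pseudokinase of the secretory pathway, was at 6.36, 10.7 and 56.0 with no count in the untreated libraries, at least 1115-fold higher against 3 counts over the group. Mtg2, a GTPase of the mitochondrial ribosome, was at 16.8, 17.9 and 124 against 0.04, 0 and 0.04. Pgm3, of the hexosamine pathway, was at 24.9, 11.7 and 20.9 against 0, 0 and 0.03, and no WT library exceeded 0.02. Fam20a and Mtg2 had no count in WT library 1 and more than 10 FPKM in the other 3. Mtmr12, a myotubularin-related adaptor, was at least 1420-fold higher, Ttc7b, of the complex that anchors phosphatidylinositol 4-kinase, at least 961-fold, the kinase gene Pak4 at least 596-fold, Zfand1, of stress granule clearance, at least 571-fold and Csk, the kinase that restrains SRC, at least 246-fold. These bounds cover counting error only.

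**Figure D4:**
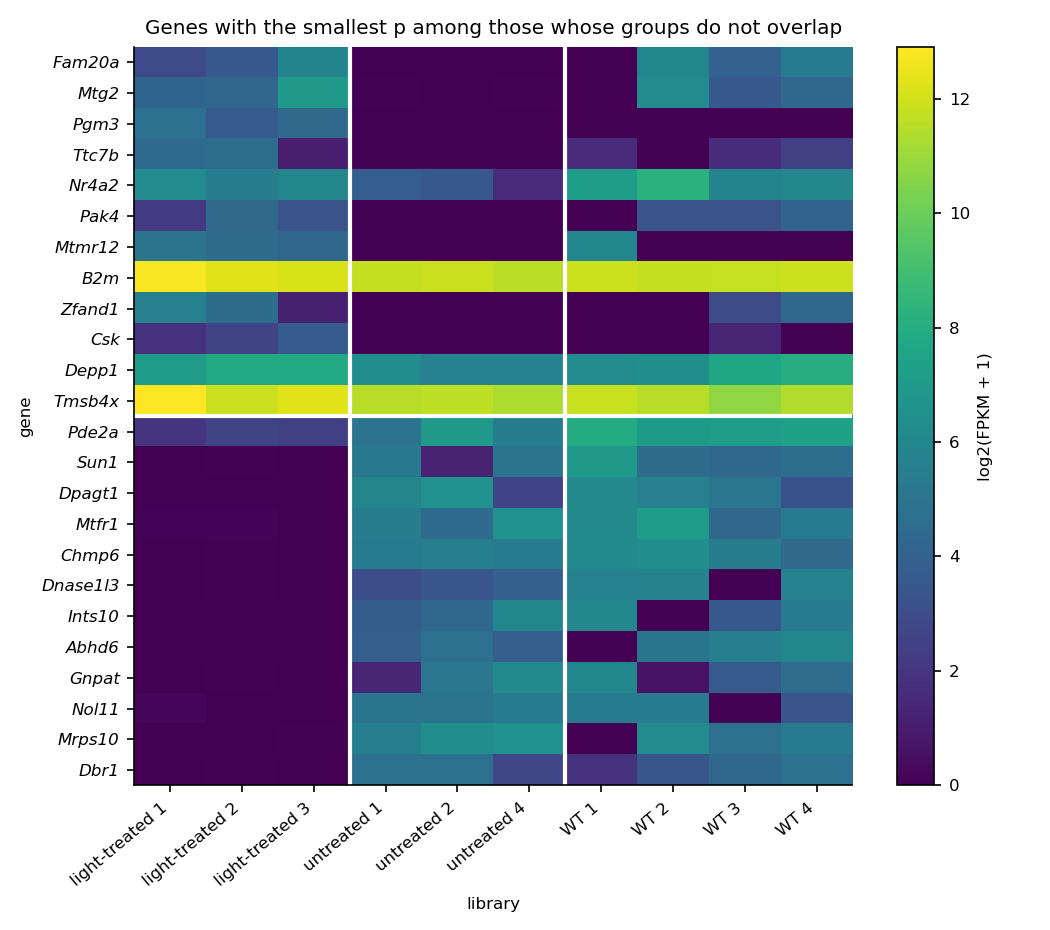
The colour gives log2(FPKM + 1) of the 12 higher (top) and 12 lower (bottom) genes named by smallest unadjusted p among genes without overlap, in the 3 light-treated, 3 untreated and 4 WT libraries. Pde2a, Nr4a2, B2m, Depp1 and Tmsb4x are present in every library, whereas the other 19 genes are at or near 0 throughout 1 of the 5xFAD groups and often in single WT libraries.

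The abundant genes give the comparison its most precise values. Among the 1010 genes with a mean FPKM of at least 100, 7 higher and 14 lower genes had an unadjusted edgeR p below 0.05. Over all 6766 tested genes there were 20 higher (0.296%) and 132 lower (1.95%). The genes at this level that are not described elsewhere are given here, chosen after their values were seen. Icam1, the leukocyte adhesion molecule, was at 1442, 1009 and 1465 in the light-treated and 2096, 3659 and 2154 in the untreated libraries (log2 fold change -0.99, SE 0.37). Lrg1, a glycoprotein that modulates endothelial TGF-beta signalling and a marker of venular endothelium, was at 1308, 2778 and 3532 against 9437, 4831 and 4372 (-1.26, SE 0.56). Nupr1, a stress-induced chromatin protein, was at 1147, 886 and 519 against 2346, 1577 and 5380 (-1.80, SE 0.73). None of these had a library at 0, and every light-treated library lay under every untreated one. Pdlim7, a cytoskeletal adaptor, was at 110, 123 and 126 against 270, 471 and 456 (-1.72, SE 0.65), and Ecm1, an extracellular matrix protein, at 133, 113 and 250 against 447, 451 and 329 (-1.24, SE 0.47). Serpinh1, the collagen chaperone HSP47, was at 7.73, 62.4 and 37.0 against 252, 199 and 75.0 (-2.09, SE 0.87). Slc9a3r2, Marcksl1, Oaf and Eef2 were likewise lower without overlap, while Jun and Myl9 overlapped. Myl9, a smooth muscle myosin light chain, was at 373 and 694 in untreated libraries 1 and 2, those with the mural transcripts, and at 0.05 in untreated library 4. On the higher side Tsc22d1 overlapped, and Hmgn2, a nucleosome-binding protein, was at 408, 325 and 336 against 174, 223 and 144, Gstm1, a glutathione transferase, at 528, 457 and 309 against 220, 162 and 229, and Tpt1 at 1067, 664 and 828.6 against 605, 407 and 404. None of these genes passed the adjusted threshold in edgeR.

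DESeq2 on the same 6766 genes and 10 libraries, the tool of the study, called 73 genes. All 6 higher ones had 3 counts or fewer in every untreated library, and 52 of the 67 lower ones had 3 or fewer in every light-treated library. In 66 of the 67 the groups did not overlap, the exception being Myl9. The WT libraries, which entered only the estimate of the spread, varied for these genes. Of the 67 lower genes, 10 reached 1 FPKM in all 4 WT libraries, 20 in 3, 20 in 2, 13 in 1 and 4 in none. Of the 6 higher ones, 4 reached it in 3 WT libraries, 1 in 1 and 1 in none, and 0 in all 4. Thus 57 of the 67 were below 1 FPKM in at least 1 WT library.

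Complete absence from a group was counted over the 12643 genes detected in any of the 6 libraries, of which 4419 were detected in all 6. Detected in the 3 light-treated and in no untreated library were 32 genes (0.253%), and in the 3 untreated and no light-treated library 98 genes (0.775%). With at least 10 counts in each library of the group that had them, 11 and 46 remained.

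Mitochondria hold the cytochrome c oxidase that is held to absorb near-infrared light, and the lists of respiratory chain genes were examined for that reason. No member of these lists, or of any list below, passed the adjusted threshold in edgeR. All 13 mitochondrially encoded genes had log2 fold changes above 0, with a median of 0.79, whereas 53.0% of all tested genes lay above 0 with a median of 0.07. These genes are transcribed together and are not 13 separate observations. Their summed FPKM was 22560, 31195 and 11425 in the light-treated and 7714, 9707 and 24569 in the untreated libraries. The groups overlapped, since light-treated library 3 was low and untreated library 4 high, and the share of counts in these genes was higher by 0.716 percentage points (p = 0.4, exact permutation test). Leaving out 1 library at a time kept their median between 0.37 and 1.23. The highest, mt-Cytb of complex III, was at 6248, 7916 and 3071 against 2246, 2688 and 7135, and mt-Co1, the catalytic subunit of cytochrome c oxidase, at 2826, 3918 and 1668 against 1352, 1426 and 3186.

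Nuclear genes of the respiratory chain lay nearer to 0. Of 38 complex I subunits, 25 were above 0 and 13 below, with a median of 0.26. Ndufa7, an accessory subunit, was at 691, 434 and 570 in the light-treated and 310, 462 and 245 in the untreated libraries (log2 fold change 0.75, SE 0.65). Ndufb5 and Ndufb11 were higher and Ndufv3 lower without overlap, 2 and 1 of 38 members, beside 3.86% and 6.8% of all tested genes. Complexes II and III had 8 of 14 above 0 (median 0.26), cytochrome c oxidase 9 of 16 (0.16) and ATP synthase 11 of 15 (0.23). Cox4i1, the regulatory subunit of cytochrome c oxidase, was at 1669, 912 and 1219 against 900, 1059 and 698, with overlap. Cox8a was at 561, 352 and 338 against 265, 302 and 254, without overlap (log2 fold change 0.64, SE 0.68), as were Cox7a2 and Cox6c. Cox11, a copper chaperone of the oxidase, had no count in any light-treated library and 10.8, 16.8 and 21.9 FPKM in the untreated libraries, opposite to the other 3. It passed the filter only through the untreated group and so could not overlap. In this list 3 of 16 members were thus higher and 1 lower without overlap, beside 3.86% and 6.8% of all tested genes. On the log2(FPKM + 1) scale of limma, where the median of all tested genes moved from 0.07 to -0.16, the cytochrome c oxidase median was -0.02 and that of complex I 0.24, both above the median of all tested genes on either scale. The complex I median stayed between 0.08 and 0.37 when 1 library was left out. Its summed FPKM overlapped, at 10165, 5380 and 7793 against 7502, 7195 and 5291. Of 12 housekeeping genes 9 were above 0 in edgeR, with a median of 0.37, higher than the edgeR median of each of these nuclear lists.

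Other groups of metabolism showed no common shift. The TCA cycle had 10 of 16 above 0 (median 0.06), with the malate dehydrogenase gene Mdh2 at 1017, 323 and 575 against 808, 767 and 478. Fatty acid oxidation had 10 of 14 (0.29) and glycolysis 7 of 13 (0.04). In glycolysis, Pfkl, the liver-type phosphofructokinase, was at 86.5, 36.4 and 64.6 against 170, 223 and 140 (log2 fold change -1.34, SE 0.63), and Pgk1 was at 183, 107 and 94.2 against 73.2, 5.77 and 43.2 (1.69, SE 1.2), both without overlap and in opposite directions. Genes of mitochondrial fusion, fission and cristae had 10 of 15 above 0 (0.16). Immt, the core protein of the cristae junction, was at 69.7, 64.3 and 125 against 39.7, 40.8 and 85.7, and the iron-sulfur scaffold Iscu at 307, 289 and 478 against 191, 355 and 117, with overlap in each. Mitochondrial ribosome and import genes had 11 of 24 above 0 (-0.12). Cytosolic ribosomal proteins had 31 of 34 above 0 (0.37), but their summed FPKM, at 37335, 17119 and 28010 against 25440, 22597 and 17194, overlapped, and without light-treated library 1 the count was 20 of 34 with a median of 0.13.

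**Figure D5:**
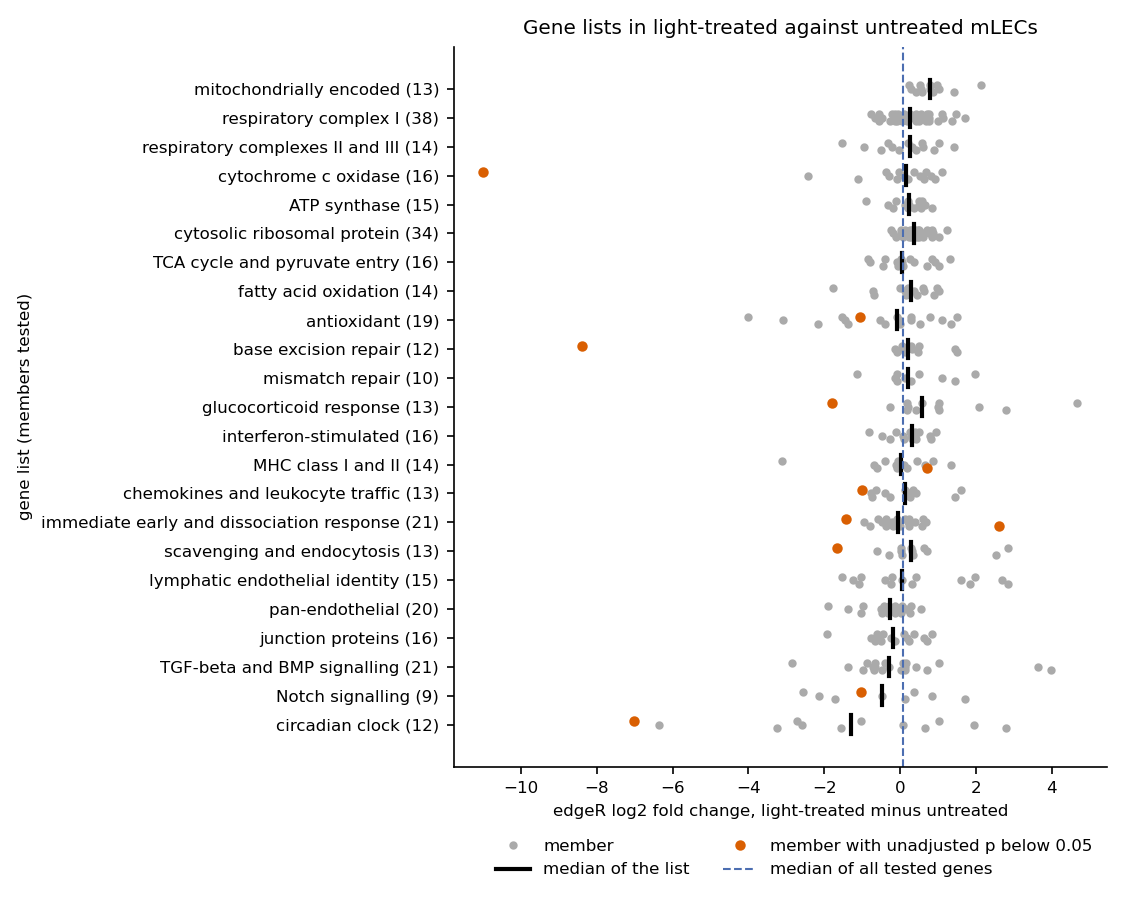
Each point is the edgeR log2 fold change, light-treated minus untreated, of a tested member of the named list, in orange where its unadjusted p is below 0.05, the black bar is the median of the list and the dashed line the median of all 6766 tested genes (0.07). Of the lists drawn, most medians lie within 0.5 of the dashed line, and the mitochondrially encoded genes (0.79), the glucocorticoid response (0.59), the Notch genes (-0.49) and the circadian clock (-1.29) lie farther from it.

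Antioxidant genes had 7 of 19 above 0 (median -0.09). Hmox1, the heme oxygenase that is induced by oxidative stress, was at 175, 108 and 153 in the light-treated and 272, 326 and 321 in the untreated libraries, every light-treated library lower (log2 fold change -1.05, SE 0.48, unadjusted p = 0.0488). Prdx2, a peroxiredoxin abundant in red cells, was at 185, 206 and 248 against 96.7, 84.2 and 68.1 (1.35, SE 0.71), in the opposite direction to the haemoglobin of untreated library 4. Prdx6 and Gclm, the regulatory subunit of glutathione synthesis, were also higher without overlap. Sod1 was at 2555, 1664 and 2382 against 1877, 1807 and 1833.

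DNA repair and division were poorly covered at these levels. Of 18 genes of mitotic proliferation only Tyms and Birc5 passed the filter, with Tyms at most 16.4 FPKM and Birc5 at most 1.78 in any library. Of 27 base excision repair genes 12 passed the filter, 9 of them above 0 (median 0.22), and of 22 mismatch repair genes 10, with 6 above 0 (0.22). On the log2(FPKM + 1) scale the first median was -0.23. Hmgb1 was at 737, 691 and 864 against 722, 739 and 662, and Pcna, the sliding clamp of both lists, at 202, 107 and 16.7 against 102, 130 and 124. Apex1, the abasic site endonuclease, shows the dropout, at 108, 31.8 and 0 against 0, 49.0 and 66.2. Xrcc1, given next, was below 1 FPKM in every light-treated library. It passed the filter only through the untreated group and so could not overlap. Xrcc1, the repair scaffold, was at 0, 0.21 and 0 against 16.5, 22.8 and 41.8 (log2 fold change -8.38, SE 3.59, unadjusted p = 0.0368), the single member of either list without overlap, where 6.8% of all tested genes were lower without overlap.

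Endothelial genes were on balance at or slightly under 0. Of the 20 pan-endothelial genes, 6 were above 0 and 14 below, with a median of -0.26 that stayed between -0.39 and -0.20 when 1 library was left out. Flt1, the decoy receptor VEGFR1, was at 102, 109 and 105 in the light-treated and 121, 145 and 128 in the untreated libraries, a narrow but complete separation (log2 fold change -0.29, SE 0.34). Ecscr, an endothelial surface protein, was at 249, 323 and 282 against 412, 506 and 324, the nearest libraries almost equal, and Robo4, a guidance receptor that stabilizes vessels, at 14.2, 11.4 and 20.4 against 41.2, 32.7 and 26.8. Vwf, Emcn, Egfl7 and Icam2 overlapped. Of 9 tested blood-brain barrier genes 2 were above 0 (median -0.06). Of 16 junction genes, 7 were above 0 (median -0.18). Cldn5, the main claudin of endothelial tight junctions, was at 429, 769 and 850 against 604, 1900 and 1078, with overlap. Jam2 was higher without overlap, at 161, 227 and 206 against 75.6, 129 and 145 (0.71, SE 0.52), and F11r, which encodes JAM-A, lower, at 77.4, 78.6 and 33.8 against 138, 79.7 and 81.5. The junction adhesion genes thus differed in direction among themselves.

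In the Notch signalling list, 4 of 9 genes were above 0 (median -0.49), and Hes1, the transcriptional repressor that Notch induces, was at 430.3, 519 and 915 in the light-treated and 1503, 1378 and 997 in the untreated libraries (log2 fold change -1.04, SE 0.46, unadjusted p = 0.0422). The receptor Notch1 and the ligand Jag1 overlapped, and the ligand Dll4 was at 17.2, 0.03 and 0.02 against 22.1, 7.43 and 27.5. TGF-beta and BMP genes had 10 of 21 above 0 (-0.29). Their targets Id1 and Id3 overlapped, and the receptor Bmpr2 was higher without overlap, at 24.1, 17.9 and 42.5 against 12.8, 16.6 and 11.9 (1.04, SE 0.66). VEGF and angiopoietin genes had 11 of 14 above 0 with a median of 0.10, and 4 of 14 with a median of -0.19 when light-treated library 2 was left out. In this list the calmodulin gene Calm2 was at 2477, 4065 and 1584 against 1771, 2239 and 2590, and Cdc42 at 259, 253 and 270 against 254, 189 and 326. Of the EGF family, Tgfa, Hbegf and the shedding protease Adam17 passed the filter, and Hbegf, the more abundant ligand, was at 388, 142 and 279 against 296, 328 and 219.

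Among chemokines and adhesion molecules 7 of 13 were above 0 (median 0.12). Cxcl10, an interferon-induced chemokine, was at 578, 890 and 670 in the light-treated and 136, 126 and 542 in the untreated libraries, without overlap (log2 fold change 1.45, SE 0.91). Vcam1, which binds leukocyte integrins as ICAM1 does, was at 180, 180 and 206 against 250, 252 and 315 (-0.64, SE 0.51), so both adhesion genes were lower in every light-treated library while Selp overlapped. Interferon-stimulated genes had 12 of 16 above 0 (0.31) and none without overlap. Without untreated library 1 their count was 7 of 16 with a median of -0.09. Ifitm3, the most abundant, was at 6290, 4480 and 4647 against 4868, 3183 and 3164. Of the 14 MHC genes 7 were above 0 (0.03). B2m was described above, and the heavy chains H2-D1, at 1315, 1318 and 1873 against 1574, 2099 and 1178, and H2-K1 overlapped.

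The immediate early and dissociation genes, which respond to tissue digestion, were high in both groups. Of 21, 10 were above 0 (median -0.06). Fos was at 519, 2077 and 2441 against 1478, 1891 and 2471, and Dusp1 at 1327, 2285 and 1908 against 2622, 2651 and 2028, so light-treated library 1 was the lowest for both. Jun, the partner of Fos, was at 28.3, 119 and 107 against 117, 234 and 351 (log2 fold change -1.42, SE 0.63, with overlap). Nr4a2, of the same list, went the other way. Of 14 chaperone genes, 6 were above 0 (-0.16) and none was free of overlap, with Hspa8 at 5506, 5795 and 5411 against 5818, 5410 and 7605.

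Glucocorticoid-responsive genes had 11 of 13 above 0, with a median of 0.59 that stayed between 0.53 and 1.04 when 1 library was left out. The metallothionein gene Mt1 was at 1138, 1118 and 1465 in the light-treated and 1055, 1113 and 635 in the untreated libraries, the groups nearly touching. Klf9, a transcriptional repressor, was at 70.3, 106 and 86.9 against 44.4, 18.7 and 69.0 (log2 fold change 1.04, SE 0.69), and the receptor gene itself, Nr3c1, at 17.6, 19.5 and 78.2 against 15.5, 5.79 and 15.0. Pdk4, the kinase that restrains pyruvate dehydrogenase, was at 2.78, 15.8 and 1.89 against 0.56, 0.30 and 0. Ddit4, an inhibitor of mTORC1 that glucocorticoids also induce, was 1 of the 2 members below 0. Its FPKM was 23.0, 21.7 and 46.4 against 87.4, 146 and 86.3 (log2 fold change -1.80, SE 0.70). Mt1, Klf9, Nr3c1 and Pdk4 were the only members higher without overlap, 4 of 13, beside 3.86% of all tested genes. Pdk4, below 1 FPKM in every untreated library, passed the filter only through the light-treated group and could not overlap. Ddit4 was the only member lower without overlap, beside 6.8%. The summed FPKM of the full list of 14 genes overlapped, at 7032, 6252.5 and 11606 against 7769, 8885 and 5629. The circadian clock list had 5 of 12 above 0 and a median of -1.29, with members between -7.01 and 2.79. Arntl, Nr1d1 and Rora, given next, were the only members without overlap, 3 lower and 0 higher, beside 6.8% and 3.86% of all tested genes. Nr1d1 and Rora were below 1 FPKM in every light-treated library. Both passed the filter only through the untreated group, could not overlap, and enter the median of the list. The summed FPKM of the full list of 16 genes overlapped, at 464, 776 and 765 against 555, 548 and 947. Arntl, the core activator BMAL1, was at 2.40, 12.7 and 1.49 against 18.4, 56.7 and 38.1, Nr1d1, which encodes the repressor REV-ERB alpha, at 0.24, 0.03 and 0.24 against 54.7, 6.55 and 4.66 (-7.01, SE 3.10, unadjusted p = 0.0420), and Rora at 0, 0.05 and 0 against 5.35, 3.96 and 5.89. Bhlhe40, the most abundant member, overlapped. The time of day of each sort is not given in the sources used here, and its part in these values was not tested.

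Lymphatic endothelium also takes up macromolecules, and 10 of 13 scavenging and endocytosis genes were above 0 (median 0.28). Cd36, a scavenger receptor for fatty acids and lipoproteins, was at 137, 220 and 385 in the light-treated and 35.7, 81.4 and 27.1 in the untreated libraries, each light-treated library higher (log2 fold change 2.55, SE 1.59). Lamp2 of the lysosomal membrane was at 169, 108 and 114 against 104, 101 and 82.6. Cltc, the clathrin heavy chain, was lower, at 22.0, 18.1 and 12.3 against 89.3, 78.2 and 77.5 (-1.65, SE 0.68, unadjusted p = 0.0302). Values within each group were close for Cltc, and no library was near 0. In the list of amyloid precursor processing and carriers 6 of 12 were above 0 (0.04). App itself was at 112, 174 and 135 against 154, 144 and 199.9, Apoe at 2359, 6562 and 4043 against 3223, 5889 and 3094 and Clu at 225, 1011 and 237 against 1126, 747 and 185, all with overlap. Aph1a, a subunit of gamma-secretase, was at 4.75, 8.37 and 7.11 against 0, 0 and 0.02 (8.98, SE 3.72), whereas Psenen, a further subunit, was lower without overlap, at 99.6, 58.7 and 180 against 196, 194 and 181.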

How the data were processed

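Sorted mLECs of each mouse were lysed and made into a Smart-seq2 library, sequenced on the Illumina NovaSeq platform. The methods name fastp 0.18.0 for filtering and RSEM for quantification, whereas the submitters' processing notes list Trimmomatic, HISAT2, StringTie and DESeq2 with build mm10, and which of them made the table was not settled here. For each gene the authors deposited an estimated count (expected count, not normalized) and its FPKM, scaled by transcript length and library size. PCR amplification without molecular identifiers means that counts are not independent molecules, so bounds cover counting error only. The table has 10 mLEC libraries. Symbols are those of the table, with 75 of 76 missing ones taken from the reference by identifier, and gene positions were looked up in GENCODE vM21 (GRCm38).

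After rounding, the counts entered edgeR 4.0.16 (R 4.3.3, TMM, quasi-likelihood test), with light-treated, untreated and WT libraries in 1 fit and Benjamini-Hochberg adjustment over the 6766 tested genes. The study's own tool, DESeq2 (here 1.42.0), was an alternative, as were limma 3.58.1 on log2(FPKM + 1), median-of-ratios scaling, other filters, the 6 libraries alone, a replicate block, and leaving out each library. Single values were compared by exact permutation, two-sided, on log2(FPKM + 1). Steps were tested on simulated data. At the measured spread, edgeR recovered 0 of 200 genes changed 4-fold, 13 of 200 changed 16-fold and 80 of 200 changed 256-fold. A count of 0 genes called therefore does not show an absence of differences, even of large ones. Replicates are separate mice by the methods of the study. No pair of libraries agreed within the sampling noise of counts. Since amplified counts are not independent molecules, this cannot show whether libraries come from different mice. Deviations of libraries with the same number correlated between -0.0434 and 0.0281, and those of libraries with different numbers between -0.0576 and 0.0399. These ranges overlap, and with this spread between libraries they cannot show whether the numbers pair mice.

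The comparison, its gene lists and the tests were chosen with earlier results of these data known. The rule for named genes took Lyve1, Prox1, Pdpn, Pecam1 and Tgfa, the 12 genes in each direction with the smallest unadjusted p among genes without overlap and with at least 10 counts in each library of the higher group (clone symbols left out), the 4 most abundant members of each list, members with an unadjusted p below 0.05, and the 5 most abundant genes of each library, which are not all reported here. List members named for the absence of overlap alone, and other genes beyond this rule, were chosen after their values were seen.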

Additional observations from a re-analysis of the deposited data

How the results depend on the processing

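No gene passed under median-of-ratios scaling, a mean FPKM of at least 5, at least 10 counts in 3 libraries, the 6 libraries alone, robust edgeR, limma with either pseudocount, no fold threshold, or leaving out any 1 library (lowest 0, highest 0). With the replicate number as a block, which is not known to pair mice, 0 genes passed. In that fit 34 higher and 114 lower genes had an unadjusted edgeR p below 0.05. Lyve1 turned there to a log2 fold change of -0.27 (SE 3.02). DESeq2 called 73 genes (6 higher, 67 lower), and 474 (92 higher, 382 lower) on the 6 libraries without a filter. Without a filter edgeR called 15 of 13443 genes, higher Ccl21a, Pdk2 and Eml1 and 12 lower, among them Pde2a, Lrg1, Myl9 and 3 haemoglobin genes. The cause was not tested. With log2(FPKM + 0.1) the differences of Prox1 and Tgfa were 3.10 and 5.35, and with TMM-scaled CPM 2.56 and 4.55. Leaving out 1 library gave, on log2(FPKM + 1), 1.84 to 3.05 for Lyve1, 1.26 to 1.78 for Prox1, -0.09 to 3.07 for Pdpn, -0.49 to -0.12 for Pecam1 and 2.99 to 4.25 for Tgfa. It also gave -831 to -172 for genes detected, 0.279 to 1.23 percentage points for mitochondrially encoded counts and -1.10 to -0.591 for the 10 most abundant genes. With fewer libraries more genes separate by construction. These counts, like thinning, were chosen after seeing the data: 447 to 735 higher and 700 to 929 lower without overlap, and 68 to 130 in light-treated and 148 to 261 in untreated libraries only. At least 10 counts in the higher group left 11 and 46 of these, and up to 1 read in the lower group gave 183 in untreated libraries only. Among named genes, 448 values under alternatives kept direction and side of the threshold, 41 passed it and 2 turned, those of Lyve1 (block) and Pdpn (-1.18 without light-treated library 1).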
